A study of Mus musculus with 6 samples.

Results

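The 6 genes Tes, Cav2, Cav1, Met, Capza2 and St7 lie next to each other on mouse chromosome 6, and were taken by gene symbol from the deposited table, in which all 6 of 13730 genes were present with 13 of 20648 RefSeq transcripts. Copy gains around Met and the caveolin genes have been described in mammary tumors of mice lacking Lunatic Fringe (Lfng), the setting from which the tumor cells used here came. The RNA table holds no DNA copy number, so whether these tumors carry such a gain is not known from it, and a gain cannot be told apart from any other source of a high RNA level.

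RNA was sequenced from 6 tumors, of which 3 grew in control mice and 3 in SS-treated mice. Each mouse was a female FVB of 6 to 10 weeks whose mammary fat pad received C0321 cells mixed with Matrigel, and treatment began once a mass could be felt. C0321 is a mouse triple-negative breast cancer (TNBC) line, 1 transplantable clone with claudin-low, mesenchymal features from an Lfng-/- mouse on the FVB background, so both groups carried the Lfng deletion and the same clone in a host with its own immune and stromal cells. SS was given by mouth at 60 mg/kg each day for 14 days. The study calls it sulindac sulfide, the active form of the anti-inflammatory drug sulindac and a modulator of gamma-secretase, whereas the sample labels write sulfate. The controls received saline by the series text and vehicle by the study's results.

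MET is the receptor tyrosine kinase for hepatocyte growth factor (HGF), and its activation drives growth, scattering and invasion of epithelial cells. Caveolin-1 and caveolin-2 form hetero-oligomers that, with cavin proteins, shape the plasma membrane into caveolae, which are abundant in endothelium, adipocytes and muscle and are also found in basal-like and mesenchymal breast cancer cells. CAPZA2 is an alpha subunit of the capping protein that closes the fast-growing ends of actin filaments, testin (Tes) is a LIM-domain protein of focal adhesions, and St7 was named for suppression of tumorigenicity.

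All 6 genes are on the plus strand and are given on GRCm38, the build called mm10 in the submitters' processing notes. In chromosomal order Tes spanned chr6:17065149-17105825, Cav2 chr6:17281185-17289130 and Cav1 chr6:17306335-17341328. Met followed at chr6:17463957-17573980, Capza2 at chr6:17637098-17666536 and St7 at chr6:17693994-17943023. These ends are 1 base before the stops of the deposited table, which lay 1 base past the RefSeq gene end for 54.5% of matched genes with 1 transcript, Tes among them. From the start of Tes to the end of St7 the genes covered 878 kb, and the 6 of them are the 6 RefSeq protein-coding genes of that stretch. Cav2 and Cav1 are the closest neighbors, with 17.2 kb between them, and Capza2 and St7 are separated by 27.5 kb. GENCODE vM21 places antisense genes over Tes, Cav2, Cav1 and St7, which share 144 exonic bases with Tes, 569 with St7 and 0 with Cav2 or Cav1. The libraries were stranded, but the strand setting of the counting is not given in the sources used here.

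The sequences in front of the starts of Met and the caveolin genes are printed because these are the genes that name the region and because Cav1 and Cav2 lie closest to each other. RefSeq windows on GRCm38.p6, plus strand, were read from 250 bases before to 50 bases from the start, and are shown here up to 25 bases from the start. Capitals mark matches, on either strand, to TGGGAA (core of RBPJ, the DNA-binding partner of Notch), TGANTCA (AP-1), ACGTG (a core of the hypoxia element), GCGTG (another such core), GGGCGG (Sp1) and TATAAA (bound by TBP). The windows are chr6:17463707-17463981 for Met, chr6:17280935-17281209 for Cav2, chr6:17306085-17306359 for the first start of Cav1 and chr6:17307390-17307664 for its second start, which lies 1305 bases downstream inside the first intron of the transcript from the first start.
Met: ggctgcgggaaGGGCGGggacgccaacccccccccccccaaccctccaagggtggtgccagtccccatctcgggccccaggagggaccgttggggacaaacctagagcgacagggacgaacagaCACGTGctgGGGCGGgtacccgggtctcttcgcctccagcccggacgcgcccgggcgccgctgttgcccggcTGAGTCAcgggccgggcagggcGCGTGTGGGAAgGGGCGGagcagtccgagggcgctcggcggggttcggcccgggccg
Cav2: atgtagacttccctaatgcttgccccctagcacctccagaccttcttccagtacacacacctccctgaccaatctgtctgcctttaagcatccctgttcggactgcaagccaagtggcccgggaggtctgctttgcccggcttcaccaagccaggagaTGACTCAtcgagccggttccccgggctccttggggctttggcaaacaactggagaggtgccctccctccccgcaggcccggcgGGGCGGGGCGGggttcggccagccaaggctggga
Cav1 first start: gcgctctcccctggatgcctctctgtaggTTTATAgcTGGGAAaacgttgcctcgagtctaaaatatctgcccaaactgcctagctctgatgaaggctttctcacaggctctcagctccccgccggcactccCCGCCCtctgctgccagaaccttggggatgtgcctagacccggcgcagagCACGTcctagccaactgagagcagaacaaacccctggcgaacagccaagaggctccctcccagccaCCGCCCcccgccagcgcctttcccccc
Cav1 second start: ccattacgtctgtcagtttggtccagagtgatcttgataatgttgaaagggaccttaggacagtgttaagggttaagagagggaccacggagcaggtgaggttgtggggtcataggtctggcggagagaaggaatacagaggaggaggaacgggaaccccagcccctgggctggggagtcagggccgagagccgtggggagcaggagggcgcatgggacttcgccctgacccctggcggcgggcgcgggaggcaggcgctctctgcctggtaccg

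The Met window held 75.7% G and C and 34 CpG, against medians of 52.7% and 7 over 32851 windows of all RefSeq starts. The Tes window had 64.7% and 24, and those of Cav2 and the starts of Cav1 had 59.3% to 64.3% and 13 to 16. The Capza2 window had 73.0% and 38, but belongs to a RefSeq start at 17637010, upstream of the start of the transcript in the table at 17637098. The windows of the 3 starts of St7 had 58.7%, 45.3% and 48.0%, with 19, 4 and 9 CpG, the latter pair below the median for G and C. TGGGAA was found 27 bases before the Met start, directly behind a GCGTG, and at the first start of Cav1, 213 bases before it. Over the 300-base windows it was present in 3 of 9 of these genes' windows (Met, the first start of Cav1 and 1 start of St7) and in 25.6% of all windows. TGANTCA was present in 2 of 9, those of Cav2 and Met, against 7.81% of all windows. ACGTG was present in 4 of 9 against 19.6%, GCGTG in 5 of 9 against 32.4%, GGGCGG in 5 of 9 against 35.7% and TATAAA in 2 of 9 against 13.6%. The ACGTG match of Met is a palindromic CACGTG, read once on each strand, and the pair of GGGCGG matches of Cav2 overlaps by a base. The second start of Cav1 held none of these letters within its window. A match is a description of the letters, and binding was not measured.

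Totals ranged from 8468914 to 24441522 estimated counts per tumor, so that 3 counts correspond to between 0.123 and 0.354 CPM, counts scaled to a common library total, before TMM factors are applied. The CPM given for genes are scaled with edgeR's TMM factors as well. In the tumor with fewest counts for each, Cav2 had 82 counts, Tes 271, St7 597, Met 916, Capza2 2556 and Cav1 2899, which alone give counting errors from 1.86% for Cav1 to 6.07% for Tes and more for Cav2. Lfng, deleted in the mouse of origin, was listed at 4.65 to 6.40 CPM, and the tumors also hold host cells. Of the markers of the labelled cancer, mesenchymal Vim lay between 5875 and 8620 CPM, and of the epithelial ones Krt8 lay between 417 and 544 CPM and Epcam between 0.041 and 2.98 CPM. The labels give separate tumors but name no mouse or batch, so p-values measure only the spread between these samples, which may in part be technical.

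**Figure D1:**
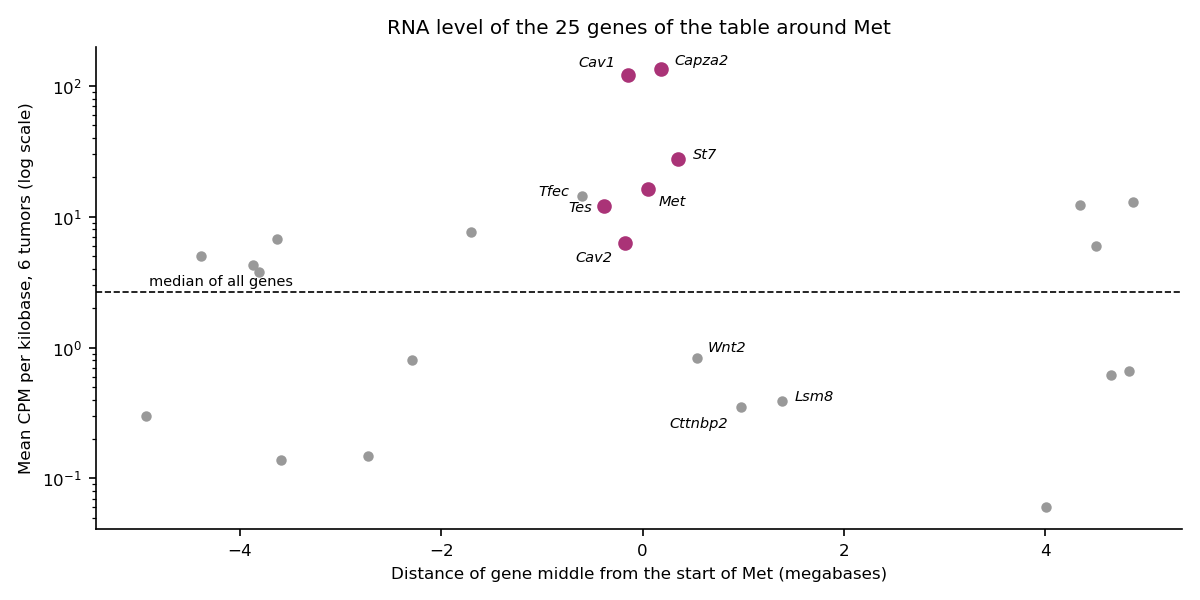
RNA level of each of the 25 genes of the table within 5 megabases of Met, as mean CPM per kilobase of transcript over the 6 tumors (vertical axis, log scale), against the distance of the gene's middle from the start of Met (horizontal axis, megabases). The 6 genes are in purple, other genes in grey, and the dashed line is the median of all genes, 2.66; all 6 genes stand above it, from Cav2 at 6.31 to Capza2 at 135.

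The mean level of each of the 6 genes was above the median of all genes, with Capza2 and Cav1 the highest of them. In single tumors Cav2 fell below the middle once, in control 2, where its CPM took place 6959 of 13730. To compare genes, CPM was divided by transcript length, which gave 135 CPM per kilobase for Capza2 (SD 8.72 over the 6 tumors) and 120 for Cav1 (SD 24.9). St7 followed at 27.6 (SD 3.73), Met at 16.3 (SD 1.63), Tes at 12.1 (SD 0.908) and Cav2 at 6.31 (SD 1.66). Of 13545 genes with a length, these levels put Capza2 in the top 2.89%, Cav1 in the top 3.23%, St7 in the top 13.5%, Met in the top 20.4%, Tes in the top 24.7% and Cav2 in the top 35.7%.

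The order Cav1, St7, Met, Tes, Cav2 held in every tumor. Capza2 was above Cav1 in 4 of 6 tumors and their ranges overlapped, so these neighbors in the order did not differ beyond their spread. The ranges of the other neighbors in the order did not overlap, and the upper gene exceeded the lower by a mean of 4.44-fold for Cav1 over St7, 1.71-fold for St7 over Met, 1.36-fold for Met over Tes and 2.03-fold for Tes over Cav2. On plain CPM, which is not corrected for length, the genes ranked among 13730 at 431 (Capza2), 474 (Cav1), 1514 (Met), 2625 (St7), 3987 (Tes) and 6248 (Cav2). Although they are neighbors, the level per kilobase of Cav1 was thus many times that of Cav2, and within each tumor the ratio of their CPM lay between 26.3 and 38.4.

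Around them, 19 further genes of the table lie within 5 megabases of Met, with a median of 3.53 CPM and at most 36.5 CPM, against a median of 83.9 CPM for the 6 genes and 7.54 CPM for all genes. On the Tes side, the nearest was Tfec, which encodes a transcription factor of the MiT family, at 16.8 to 39.2 CPM. On the St7 side, the levels were low: Wnt2, a WNT ligand, had 0.798 to 2.85 CPM, Cttnbp2, a cortactin-binding protein, 0.369 to 5.45 CPM, and Lsm8, part of an RNA-binding ring, 0 to 0.596 CPM. Of the 13 RefSeq protein-coding genes within 1 megabase of the 6, themselves included, 10 had a row, and Asz1, Cftr and Ankrd7 had none. Farther out, the most abundant were Fam3c (36.5 CPM), Tspan12 (30.6 CPM) and Tmem106b (30.3 CPM). Per kilobase they had 12.9, 12.3 and 5.04 CPM, and Tfec had 14.5. Fam3c, Tspan12 and Tfec were thus below Met but above Tes, and Mdfic (7.64) and Gpr85 (6.81) were above Cav2. Of the 19 further genes 9 were above the median of all genes, as were all of the 6. These are differences of level in the same tumors, with no tissue outside the tumor to set them against.

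**Figure D2:**
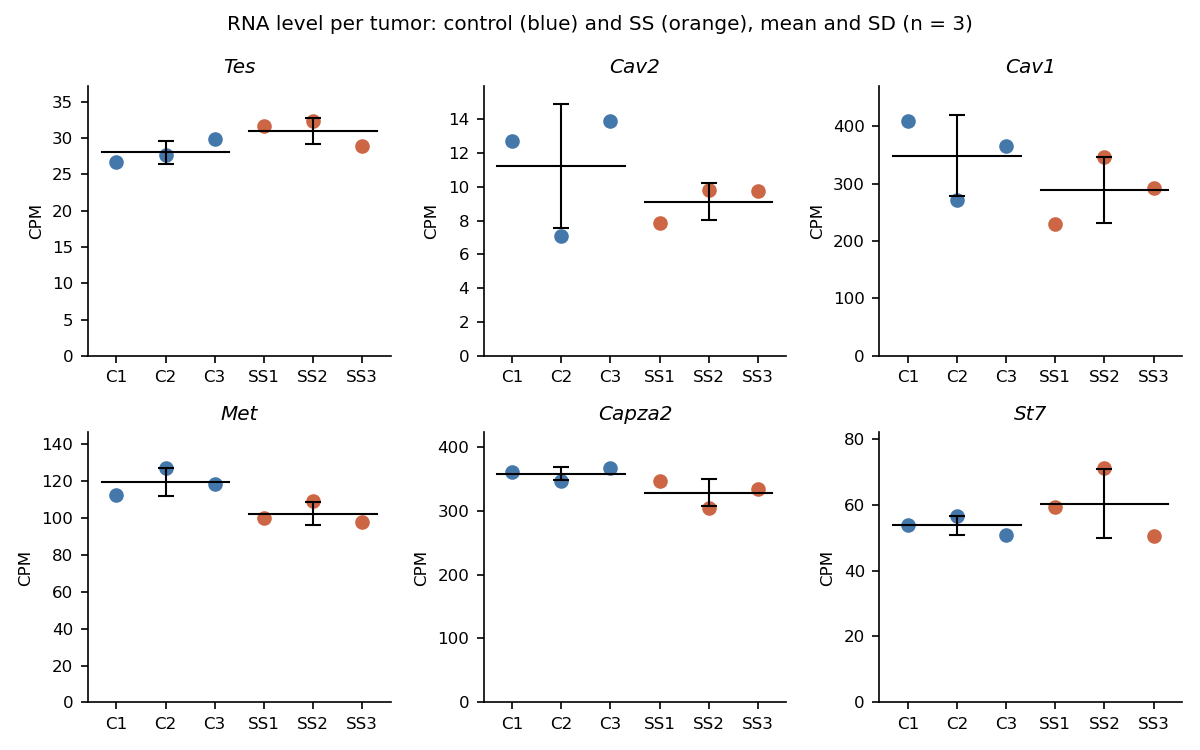
CPM of each gene in each tumor (vertical axis from 0), with control tumors C1 to C3 in blue, SS-treated tumors SS1 to SS3 in orange, the horizontal line for the group mean and the bar for the SD (n = 3). Met is the gene whose SS-treated tumors, 97.8 to 109 CPM, all sit below the controls, 112 to 127 CPM, as for 6.4% of all genes tested.

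The comparison of SS-treated with control tumors asked whether treatment moved the RNA of these genes. Met was the only one of the 6 whose groups did not overlap, which was also the case for 12.9% of all genes tested. No gene of the 6 passed edgeR's quasi-likelihood test. Met, the HGF receptor, had 112, 127 and 118 CPM in the controls and 99.9, 109 and 97.8 CPM in the SS-treated tumors. Every SS-treated tumor was below every control. The mean was 119 ± 7.56 CPM (SD, n = 3) in controls and 102 ± 6.08 CPM (SD, n = 3) with SS, a log2 fold change of -0.22 (SE 0.10, 95% interval -0.46 to 0.01). The unadjusted p of edgeR's quasi-likelihood test was 0.0615 and the p with Benjamini-Hochberg adjustment over 10902 genes was 0.780. An exact two-sided permutation test gave p = 0.1, the smallest that 3 against 3 allows. In these bulk tumors fewer cells of a type and less RNA per cell cannot be told apart.

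Cav1, the main structural protein of caveolae, had 409, 271 and 365 CPM in the controls and 230, 346 and 292 CPM with SS. Control 1 was highest and SS-treated tumor 1 lowest, and the groups overlapped because control 2 was below 2 SS-treated tumors. The log2 fold change was -0.27 (SE 0.19, 95% interval -0.72 to 0.18), with an edgeR adjusted p of 0.860. Cav2, its partner, had 12.7, 7.08 and 13.9 CPM in the controls and 7.84, 9.78 and 9.72 CPM with SS. Control 2 was the lowest tumor of all 6 and the other controls the highest. The log2 fold change was -0.30 (SE 0.28, 95% interval -0.96 to 0.36), with an edgeR adjusted p of 0.898. Single tumors moved both values. Without control 2, neither gene's groups overlapped, but the groups of 21.2% of all genes were then also apart. In that fit the log2 fold change of Cav1 was -0.42 (edgeR unadjusted p = 0.0528) and that of Cav2 -0.55 (edgeR unadjusted p = 0.0443). The adjusted p was 0.924 for each, and 560 of 11276 genes had an unadjusted p under 0.05. The log2 fold change of Cav1 was also -0.42 without SS-treated tumor 2, but -0.14 without control 1 and -0.13 without SS-treated tumor 1. That of Cav2 was -0.11 without control 3.

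Among the cytoskeletal genes, Capza2 had 360, 346 and 367 CPM in the controls and 346, 305 and 333 CPM with SS. The groups met at a single point, control 2 and SS-treated tumor 1, and were otherwise apart. The log2 fold change was -0.12 (SE 0.09, 95% interval -0.34 to 0.09), with an edgeR adjusted p of 0.866, and was -0.08 without SS-treated tumor 2. Tes had 26.7, 27.6 and 29.8 CPM in the controls and 31.7, 32.3 and 28.9 CPM with SS. SS-treated tumors 1 and 2 were above all controls and tumor 3 lay within them. The log2 fold change was 0.14 (SE 0.13, 95% interval -0.16 to 0.44), with an edgeR adjusted p of 0.894. St7 had 53.7, 56.6 and 50.9 CPM in the controls and 59.3, 71.2 and 50.5 CPM with SS. SS-treated tumor 2 was the highest and tumor 3 the lowest of all 6. The log2 fold change was 0.17 (SE 0.14, 95% interval -0.17 to 0.50), with an edgeR adjusted p of 0.890. It was 0.03 without SS-treated tumor 2 and 0.28 without SS-treated tumor 3.

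**Figure D3:**
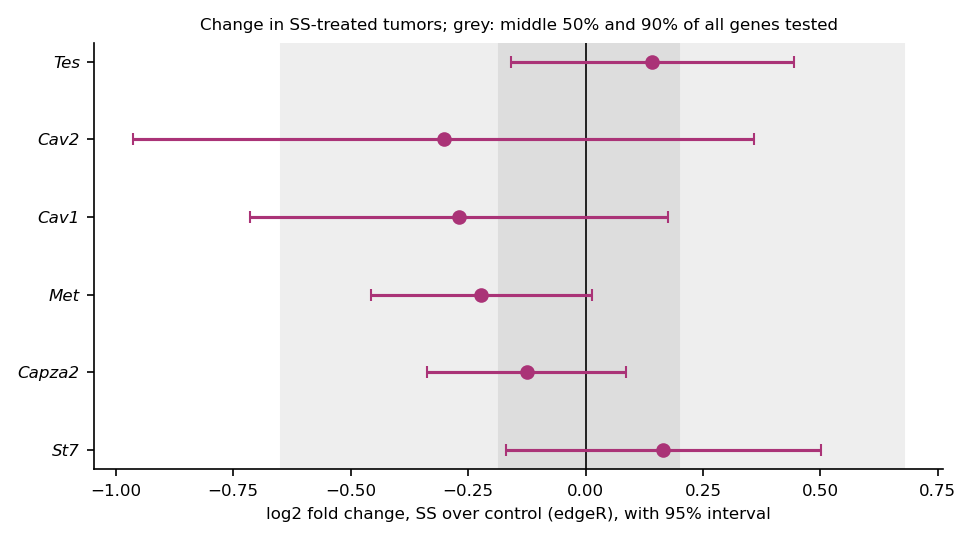
Log2 fold change of each gene, SS over control, as fitted by edgeR (horizontal axis), with its 95% interval as a bar. The dark and light grey bands hold the middle 50% and 90% of all genes tested, and all 6 intervals include 0, that of Met from -0.46 to 0.01.

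Across the 6 genes, all of which passed edgeR's filter on low counts, 0 had an adjusted p under 0.05, as did 0 of all 10902 genes tested (0%), where 693 had an unadjusted p under 0.05. None of the 6 reached an unadjusted p under 0.05, against 6.36% of all genes. The groups of 1 of the 6, Met, did not overlap, against 12.9% of all genes, and 6.4% of all genes were like Met in not overlapping with SS lower. The fitted change was below 0 in 4 of the 6 (Met, Cav1, Cav2 and Capza2) and in 50.2% of all genes. The median log2 fold change was -0.17 over the 6 and -0.0013 over all genes. DESeq2, run as an alternative, called 36 genes in all and none of the 6. Of the 15 further genes of the neighborhood that were tested, 10 were lower and 5 higher with SS, with a median log2 fold change of -0.12. Among them 4 reached an edgeR unadjusted p under 0.05, namely Gpr85 (log2 fold change 0.81), Foxp2 (-1.37), Mdfic (-0.44) and Ing3 (-0.70), which are named here because they made up that count, and 3 had groups that did not overlap.

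**Figure D4:**
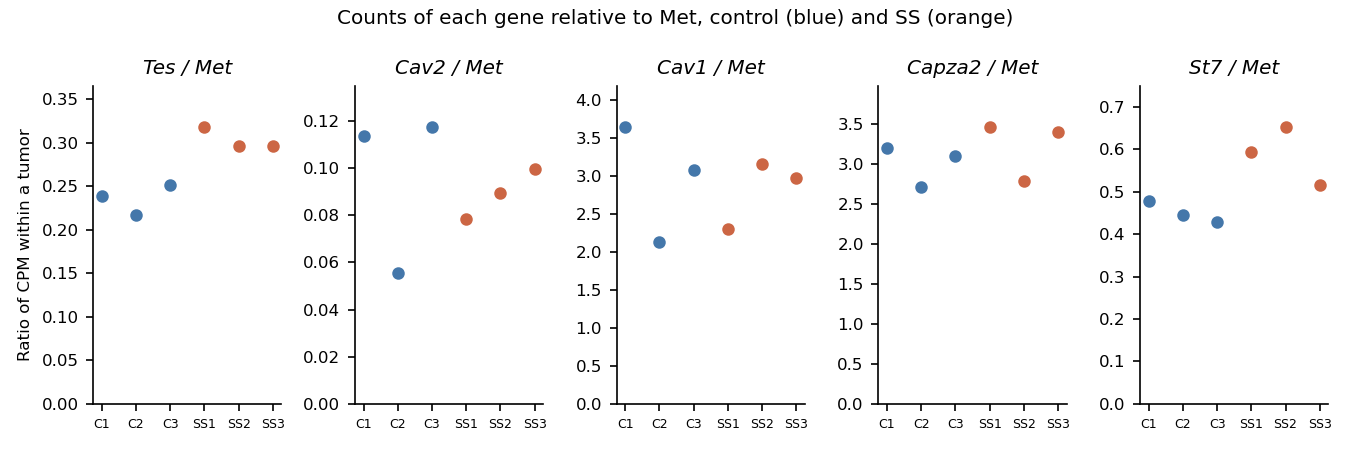
CPM of each gene divided by that of Met in the same tumor (vertical axes from 0), with controls C1 to C3 in blue and SS-treated tumors SS1 to SS3 in orange. Tes over Met lay between 0.217 and 0.252 in controls and between 0.296 and 0.317 with SS, and St7 over Met between 0.430 and 0.479 in controls and between 0.516 and 0.652 with SS.

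Ratios of neighboring genes within a tumor do not depend on library size. Tes and St7 were higher relative to Met in every SS-treated tumor than in any control, whereas the caveolins and Capza2 were not. The ratio of Tes to Met was 0.238, 0.217 and 0.252 in the controls and 0.317, 0.296 and 0.296 with SS. The log2 ratio was 0.36 higher with SS (exact two-sided permutation p = 0.1, the smallest possible, adjusted over 5 ratios 0.25). The ratio of St7 to Met was 0.479, 0.445 and 0.430 in the controls and 0.593, 0.652 and 0.516 with SS. The log2 ratio was 0.37 higher with SS (exact two-sided permutation p = 0.1, adjusted 0.25). Neither difference passed the test. The groups were also apart for 21.0% of all 10901 other tested genes when divided by Met, so the ratios carry the difference of Met itself. The log2 ratio to Met differed by 0.09 for Capza2, by -0.05 for Cav1 and by -0.03 for Cav2, with groups that overlapped. That of Capza2 was 0.02 without control 2, 0.04 without SS-treated tumor 1, 0.05 without SS-treated tumor 3, 0.14 without control 1 and 0.19 without SS-treated tumor 2. The log2 ratio of Cav1 to Cav2 differed by -0.02 between the groups (exact two-sided permutation p = 1.0).

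Between tumors, the caveolins were the pair with the highest r of 15, which did not pass after adjustment. Over the 6 tumors, log2 CPM of Cav1 and Cav2 gave Pearson's r = 0.859 (exact permutation p = 0.0333) and Spearman's rho = 0.886 (exact permutation p = 0.0333), but adjusted over 15 pairs both p were 0.5. Without the 2 tumors farthest from the median of Cav1 r was 0.870, and with the group means removed it was 0.838. For the other 14 pairs the unadjusted exact permutation p of r was 0.139 or more. For Met r was 0.31 with Cav1, 0.04 with Cav2, 0.32 with Capza2, -0.02 with St7 and -0.42 with Tes, with exact permutation p of 0.403 or more. The values with the caveolins rested on few tumors: without control 2 and SS-treated tumor 3, the farthest from the median of Met, r over the remaining 4 was 0.863 with Cav1 and 0.963 with Cav2. With the group means removed, r of Met was -0.19 with Cav1, -0.51 with Cav2, -0.77 with Capza2, 0.74 with St7 and 0.49 with Tes, so its sign turned for each of the 5. The points of each pair share libraries and their depth.

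Over all 6 tumors, genes elsewhere had a higher r with Met than its neighbors had. Among 7644 tested genes with a mean of at least 5 CPM, the most alike over the 6 tumors were Hif1a, the oxygen-regulated transcription factor (r = 0.991), Usp1, a deubiquitinase of DNA repair (r = 0.988), and Hsd17b10, a mitochondrial dehydrogenase (r = 0.985). Hif1a had 319, 369 and 334 CPM in the controls and 272, 299 and 274 CPM with SS. Its controls were all above the SS-treated tumors, as for Met. Hif1a was picked for its r with Met over these same tumors, so this likeness of the groups is no separate result. The genes most alike to Cav1 were Stag2, a cohesin subunit (r = 0.996), Ccz1, which acts in endosome maturation (r = 0.976), and Gosr1, a Golgi SNARE (r = 0.963), and Cav2 stood at place 114. These are the extremes of 7644 comparisons over 6 points and are given as a description.

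**Figure D5:**
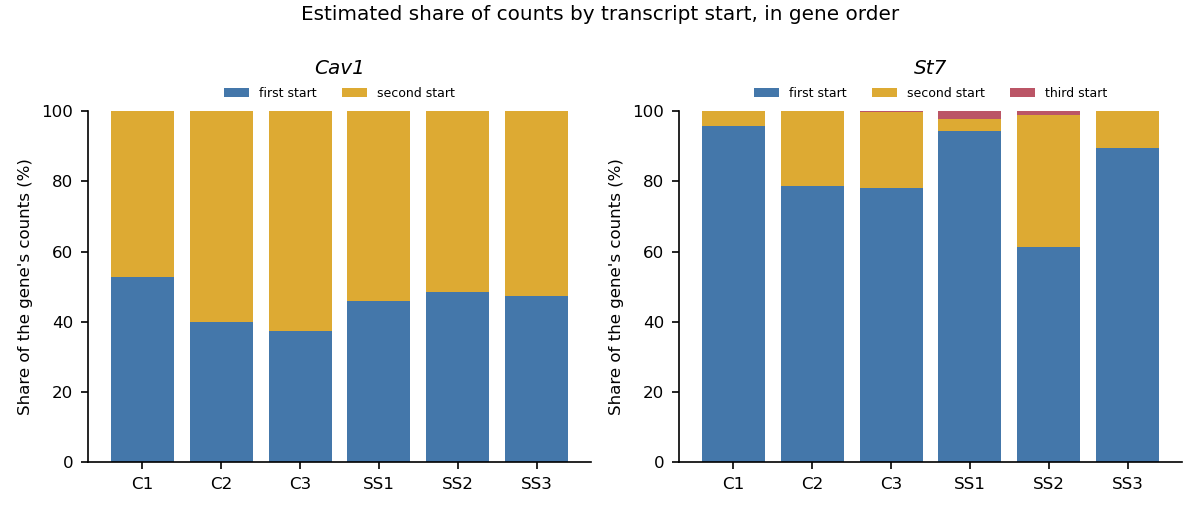
Estimated share of each gene's counts by transcript start (vertical axis, percent) in controls C1 to C3 and SS-treated tumors SS1 to SS3, for Cav1 (left) and St7 (right), with starts in gene order. The first start of Cav1 took 37.4% to 52.8% and that of St7 61.4% to 95.8%.

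Tes, Met and Capza2 had 1 transcript each in the table, and the other genes had several. Cav1 was read from both of its starts: the first, transcript NM_007616, took 52.8%, 40.0% and 37.4% of its counts in the controls and 46.0%, 48.5% and 47.5% with SS. The SS-treated tumors were close together and lay inside the range of the controls. The second start, NM_001243064, whose protein lacks the amino end that holds a phosphorylated tyrosine, took the rest, with means of 56.6% ± 8.26 (SD, n = 3) in controls and 52.7% ± 1.28 (SD, n = 3) with SS. The difference of -3.89 percentage points was -8.60 without control 1, -2.19 without control 2 and -0.88 without control 3. For Cav2 the shorter transcript, NM_001277756, took 65.8%, 61.5% and 71.2% in the controls and 34.6%, 67.1% and 67.4% with SS. SS-treated tumor 1 was the exception, at 108 counts for the gene, and without it the difference between groups was 1.09 percentage points in place of -9.78. For St7 the first start took 84.1% ± 10.1 in controls and 81.7% ± 17.8 with SS (SD, n = 3), and SS-treated tumor 2 was lowest at 61.4%. The last start of St7, that of NM_022332, took 0.0013% to 2.17%. All 10 transcripts compared had overlapping groups, with exact two-sided permutation p adjusted over them between 0.875 and 0.9. Shares are the authors' estimates of reads that overlapping isoforms have in common, and are less certain than the gene sums.

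HGF, the ligand of MET, is made by stromal cells, and Hgf had 17.8, 17.4 and 16.3 CPM in the controls and 12.8, 12.9 and 21.4 CPM with SS. SS-treated tumors 1 and 2 were below all controls and tumor 3 above them. St14 (matriptase, which activates HGF) had a mean of 2.27 CPM in controls and 3.10 CPM with SS, Spint1 (an inhibitor of such proteases) had 0.322 and 0.243 CPM and was too low to test, and Spint2 and Mst1r had no row. Of 44 genes listed for MET signaling 37 had a row and 32 were tested, 17 with a higher and 15 with a lower fitted value, a median log2 fold change of 0.02 and none with an adjusted p under 0.05. At an edgeR unadjusted p under 0.05 there was 1, Gab2, a docking protein, with 69.7 ± 4.97 CPM in controls and 82.8 ± 3.66 CPM with SS (SD, n = 3). Next in order of p were Plau (urokinase, log2 fold change -0.61, edgeR unadjusted p = 0.0630) and Itga6 (integrin alpha 6, log2 fold change -0.28, edgeR unadjusted p = 0.0960). Among 35 receptor tyrosine kinases with a row Met took place 8 on CPM per kilobase. The 7 above it were Axl (126), Csf1r (103, a receptor of macrophages), Fgfr1 (97.7), Insr (30.7), Epha2 (29.0), Ptk7 (26.4) and Ryk (23.7), and Igf1r came next at 15.5. Of the 31 kinases tested 14 had a higher and 17 a lower fitted value, a median of -0.04, and 0 an unadjusted p under 0.05. Beside Met the smallest p were those of Ephb2 (log2 fold change -0.32) and Ephb4 (0.58), both ephrin receptors.

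For the caveolins, the cavins that coat caveolae were measured beside them. Cavin1, which every caveola needs, had 358 ± 108 CPM in controls and 415 ± 140 CPM with SS (SD, n = 3), so that its groups overlapped widely. Cavin2 had means of 228 ± 14.8 CPM in controls and 174 ± 27.7 CPM with SS (SD, n = 3), and its groups did not overlap. Its log2 fold change was -0.39 (SE 0.13), with an edgeR unadjusted p of 0.0206 and an adjusted p of 0.771. Cavin3 was low, at 2.54 and 2.98 CPM, and Ehd2, an ATPase at the neck of caveolae, had 37.1 and 42.3 CPM. Of 21 genes listed for caveolae, all tested, 13 had a higher and 8 a lower fitted value, with a median of 0.05, and Cavin2 was the 1 with an unadjusted p under 0.05. Pacsin2, a membrane-bending protein, had a log2 fold change of 0.15, with an edgeR unadjusted p of 0.162.

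For Capza2, the other chains of capping protein were Capza1, at 110 ± 6.31 CPM in controls and 101 ± 10.1 CPM with SS (SD, n = 3), and the beta subunit Capzb, at 445 ± 30.2 and 458 ± 7.15 CPM. Per kilobase Capzb reached 269 CPM, Capza2 135 and Capza1 32.9, so Capza2 was the more abundant of the alpha chains. Capg, another protein that caps actin filaments, had 119 and 135 CPM. Of 18 genes tested for actin capping and filament ends 6 had a higher and 12 a lower fitted value, with a median of -0.10, and 0 an unadjusted p under 0.05; the smallest were those of Eps8 (log2 fold change 0.53), Add3 (-0.58) and Capg (0.18). Of 21 focal adhesion partners of testin 10 had a higher and 11 a lower value, with a median of -0.04. Pxn (paxillin, log2 fold change -0.22) was the 1 with an unadjusted p under 0.05, at 0.0463 in edgeR, followed by Enah (-0.26) and Evl (0.31), which extend actin filaments. These counts stand beside the 6.36% of all genes at that p, and no gene of any list had an adjusted p under 0.05.

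Caveolins are also made by endothelium, adipocytes and muscle, so the markers of cells that a fat pad tumor can hold were set beside them. Of 13 endothelial markers tested 10 had a higher and 3 a lower fitted value, with a median of 0.44, and Vwf (log2 fold change 1.20), Esam (0.58) and Ptprb (0.79) had an edgeR unadjusted p under 0.05, 3 of 13 beside 6.36% of all genes. The summed level of the 14 with a row was 201, 179 and 136 CPM in the controls and 190, 325 and 178 CPM with SS. SS-treated tumors 1 and 3 thus lay within the range of the controls, and tumor 2 above it. Pecam1 was at 0 to 0.596 CPM. Of 10 adipocyte markers tested 7 were higher and 3 lower, with a median of 0.20, none of them with such a p, and Cebpa (0.13), Car3 (-0.50) and Lpl (0.31) had the smallest. The sum of the 15 with a row was 852, 263 and 215 CPM in the controls and 445, 585 and 311 CPM with SS. Cebpa alone had 227, 195 and 185 CPM in the controls and 233, 223 and 206 CPM with SS. It thus made up most of the sum in control 2, control 3 and SS-treated tumor 3. Adipoq stayed between 0 and 0.596 CPM. Of 12 pericyte and smooth muscle markers 6 were higher and 6 lower, with sums of 1138 to 1893 CPM and 1036 to 2189 CPM, and Tagln (-0.40), Mylk (0.39) and Notch3 (0.49) had the smallest p. The part of these cells in the levels of Cav1 and Cav2 was not tested.

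Of 13 leukocyte markers tested 8 were higher and 5 lower, with a median of 0.03, and Itgax (CD11c) had an edgeR unadjusted p of 0.0010 (log2 fold change 1.24), followed by Adgre1 (0.50) and Ptprc (0.20). Sums over the 16 with a row were 883 to 1010 CPM in controls and 920 to 1182 CPM with SS. Of 14 epithelial markers 8 were higher and 6 lower, with a median of 0.33, and Krt18 (log2 fold change -0.50) had an edgeR unadjusted p of 0.0039, followed by Cldn4 (-1.01) and by Epcam, whose means were 0.363 CPM in controls and 1.57 CPM with SS. Sums over the 16 with a row overlapped, at 528 to 983 CPM and 515 to 977 CPM. Of 15 genes of the mesenchymal tumor state 6 were higher and 9 lower, with a median of -0.0088, and Tgfbi (0.26) had an unadjusted p of 0.0243 in edgeR, followed by S100a4 (0.70) and Zeb1 (-0.30). Sums over the 16 with a row were 15043 to 17010 CPM and 13679 to 16293 CPM. The part of these markers in the lower Met of the SS-treated tumors was not tested.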

How the data were processed

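Stranded libraries of polyadenylated RNA from 6 tumors were sequenced at both ends over 75 nucleotides. The values deposited by the authors are estimated counts for RefSeq transcripts, not normalized, whose lowest row sum was 10. The submitters' processing notes name CASAVA 1.8.1, Bowtie2 2.2.5, STAR 2.5.3a and mm10 without roles, and the counting tool is not given in the sources used here. The study's methods name quantile normalization and a t-test, but the values are counts, so edgeR was used for the main comparison. A related alternative used limma 3.58.1 on quantile-normalized log2 CPM. Its moderated t statistic draws on the variances of all genes, and is not the study's own test.

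Counts were summed by symbol (22 symbols turned to dates were restored by RefSeq accession) and rounded. SS was compared with control in edgeR 4.0.16 (R 4.3.3) with TMM scaling, filterByExpr (minimum count 10) and the quasi-likelihood test, and p-values were adjusted after Benjamini-Hochberg over the 10902 genes. The SE is the log2 fold change over the square root of F. Length per gene was the mean of GENCODE vM21 transcripts matched to RefSeq, weighted by counts, for 98.7% of genes. Ratios, shares and correlations used exact permutation in scipy 1.17.1. DESeq2 1.42.0, other scalings and filters, a replicate block and leaving out each tumor were alternatives. The test scripts were checked on simulated data.

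The 6 genes, the lists and the motifs were chosen with earlier results of these data known. Named were the 6 genes, table genes within 1 megabase of them, the 3 most abundant beyond it within 5, the 3 smallest p of each list, set partners of MET, caveolae and capping protein, the 3 genes most like Met and Cav1, and Lfng. The other receptor kinases ranked beside Met, Gpr85, Foxp2, Mdfic, Ing3 and single cell markers were added after their values were seen. A gene that this rule also names is not reported here.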

Additional observations from a re-analysis of the deposited data

How the results depend on the processing

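Over 13 alternatives, the log2 fold change of each of the 6 genes kept its sign, and no adjusted p was below 0.660. Other scalings, filters and tools gave -0.23 to -0.19 for Met, -0.28 to -0.25 for Cav1, -0.31 to -0.25 for Cav2, 0.13 to 0.15 for Tes, -0.13 to -0.12 for Capza2 and 0.14 to 0.17 for St7. Leaving out a tumor moved them further, to -0.27 to -0.17 for Met, -0.42 to -0.13 for Cav1, -0.55 to -0.11 for Cav2, 0.11 to 0.19 for Tes, -0.17 to -0.08 for Capza2 and 0.03 to 0.28 for St7. The number of the 6 with groups that did not overlap was 1, where 12.9% of all genes had groups apart. It became 2 with upper-quartile scaling (13.1% of all genes) and 2 with no filter on low counts (11.9%), when Capza2 joined Met. It was 2 to 4 when a tumor was left out, when 21.1% to 25.4% of all genes had groups apart. The number with an unadjusted p under 0.05 was 0, and 0 to 1 when a tumor was left out, the 1 being Cav2 without control 2. The fits with a tumor left out had 520 to 877 of all genes at such a p, and the one without control 2 had 560. Without single tumors the log2 ratios of Cav1 and Cav2 to Met, which were not called, took either sign (-0.26 to 0.12 and -0.38 to 0.16).

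With the replicate block, the log2 fold change was -0.22 for Met (edgeR unadjusted p = 0.0698), -0.27 for Cav1, -0.26 for Cav2, 0.14 for Tes, -0.13 for Capza2 and 0.15 for St7, and 0 of all genes had an adjusted p under 0.05, with 643 at an unadjusted p under 0.05. Same-numbered tumors deviated together with r of 0.116, 0.021 and 0.077, so the numbers are not taken to pair the tumors. The block changed no call.

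With 3 tumors per group and a common coefficient of variation of 0.323, the 95% interval of each of the 6 genes included 0. Depth limits Cav2 and the minor transcripts of St7 most.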
